A study of Mus musculus with 16 samples.

Results

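BC049730 and 8 further genes that encode proteins of the Ly6/uPAR domain family were described in the colon of mouse pups at weaning. The 9 genes, of 36711 measured, were Ly6a, Ly6c1, Ly6d, Ly6e, Ly6g6c, Lypd3, Lypd5, Plaur and BC049730, and all 9 passed the filter on dim probes. They were found by name on the array. BC049730 was chosen by its difference between delivery modes in an earlier analysis of these same values, and the other genes were chosen by the domain they share with it, with their results known. The values that compare delivery modes are therefore given for the 9 genes as a description, with no test.

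Colon RNA of 16 pups of the outbred RjOrl:SWISS stock was hybridised to 1-colour Agilent arrays, 1 array per pup, when the pups were weaned at 3 weeks. The 8 C-section delivery (CSD) pups were taken by hysterectomy late in gestation and were raised by foster mothers, themselves recently delivered by the vaginal route. The 8 vaginal delivery (VD) pups came from litters that were exchanged between their mothers, so that both groups were reared by a female other than their own dam. The CSD pups came from 2 litters, those of mother 3 and mother 4, each with 2 females and 2 males on the arrays. The VD pups came from the litter of mother 5 (2 females, 3 males) and that of mother 6 (3 males). With 2 litters for each delivery mode, litter and delivery mode overlap, and a difference between modes rests on 4 dams. Each slide held 4 CSD and 4 VD arrays, and from 58.7% to 64.9% of the spots of an array were well above background.

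Proteins of the Ly6/uPAR family carry a small, disulphide-rich domain with finger-like loops. Most are tethered to the outer face of the plasma membrane by a glycosylphosphatidylinositol (GPI) anchor, and a few are secreted. In the gut they are known from immune cells, from endothelium and from the epithelium, where family members have been described as differentiation antigens, as receptors for extracellular proteases and as proteins of the mucus-facing surface.

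The tissue label was compared with marker genes. The 4 measured Hox and related markers of distal hindgut position were well above background on at least 8 arrays, as were all 17 surface colonocyte markers, whereas the 8 small intestine markers were mixed. Sis, Lct, Apoa1 and Apoa4 were well above background on 0 arrays and Treh on 2 CSD and 2 VD arrays, but Fabp6 (10.01 ± 0.52 in CSD and 10.13 ± 0.38 in VD pups), Slc10a2 (9.16 ± 0.44 and 9.15 ± 0.55) and Rbp2 (8.07 ± 0.32 and 7.93 ± 0.18) were so on all 16 arrays. Of 23 markers of stratified squamous epithelium 15 were well above background on at least 8 arrays, among them Krt5 (6.76 ± 0.15 in CSD and 6.82 ± 0.09 in VD pups, log2 intensity, SD, n = 8) and Krt14 (8.35 ± 0.35 and 8.58 ± 0.30). The other 8 were not, with Sprr1b, Sprr3 and Ivl well above background on 0 arrays, Krt4, Calml3 and Rhcg on 1 array each, Lgals7 on 2 CSD arrays and 1 VD array, and Krt13 on 1 CSD and 5 VD arrays. Such epithelium lines the anal canal, and several Ly6/uPAR genes are expressed in it, so its part in the levels below was not tested. In whole tissue, fewer cells of a type and less RNA per cell cannot be told apart.

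The array carried 1 probe for BC049730, at chr7:25499219-25499278 (mm9), and its RefSeq transcript is now filed under the symbol Lypd10. The probe sequences of BC049730 and of its neighbours Cd177 and Ceacam10 are shown because the results turn on these single 60-base probes. Capitals mark the longest run shared with the probe of any other gene on the array, which was 13 bases for BC049730, 15 bases for Cd177 and 13 bases for Ceacam10.
BC049730 probe: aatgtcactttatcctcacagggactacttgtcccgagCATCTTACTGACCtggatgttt
Cd177 probe: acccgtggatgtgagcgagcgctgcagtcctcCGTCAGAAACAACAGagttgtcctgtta
Ceacam10 probe: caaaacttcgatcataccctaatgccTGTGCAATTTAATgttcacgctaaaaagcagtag
No other probe on the array therefore came near the BC049730 sequence. Aligned without gaps, the nearest probe of another gene matched it at 31 of 60 positions. This was different for Ly6c1, one of whose 2 probes matched the probe of Ly6c2 at 57 of 60 positions, the substitutions being G8C, A57G and C60T (the base of the Ly6c1 probe, the position from its 5′ end, the base of the Ly6c2 probe). Signals of Ly6c1 and Ly6c2 at that probe cannot be told apart.

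The window of 250 bases before the transcription start of Lypd10 was set beside that of Lypd11, the adjacent family gene, which the array names Gm4763. These windows are shown because the genes lie next to each other. Capitals mark the bases that are identical in a global alignment, 75.4% of its columns, against 47.4% for the window of Cd177 and 48.9% for that of Ceacam10 aligned to Lypd10 in the same way. Lypd11 and Ceacam10 each had another listed start site, whose window was not aligned. The sequences are those of RefSeq on GRCm38.p6, each read on the strand of its gene.
Lypd10, chr7:24709009-24709258, plus strand: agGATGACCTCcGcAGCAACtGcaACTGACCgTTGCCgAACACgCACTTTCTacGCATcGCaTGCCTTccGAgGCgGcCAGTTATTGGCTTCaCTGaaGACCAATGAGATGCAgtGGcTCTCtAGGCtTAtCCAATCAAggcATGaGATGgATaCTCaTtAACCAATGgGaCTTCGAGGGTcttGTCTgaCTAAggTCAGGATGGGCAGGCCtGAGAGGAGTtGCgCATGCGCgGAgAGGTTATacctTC
Lypd11, chr7:24726909-24727158, minus strand: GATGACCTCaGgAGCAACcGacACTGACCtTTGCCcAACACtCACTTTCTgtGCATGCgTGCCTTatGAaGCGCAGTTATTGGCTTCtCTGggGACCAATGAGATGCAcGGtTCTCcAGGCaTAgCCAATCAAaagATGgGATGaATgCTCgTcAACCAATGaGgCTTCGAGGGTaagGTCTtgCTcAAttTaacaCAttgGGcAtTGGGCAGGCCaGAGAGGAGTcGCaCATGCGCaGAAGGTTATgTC
BC049730 was well above background on 13 of 16 arrays, and Gm4763 on 0 of 16, at 5.99 ± 0.05 in CSD and 5.98 ± 0.04 in VD pups (log2 intensity, SD, n = 8), which sets no level of one gene against the other. The Lypd10 window held none of 5 motifs searched on both strands, namely TTTATG (in 10.8% of all 32851 windows of 250 bases before a start site), AGATAA (9.99%), CAAAGTCCA (0.384%) and TGANTCA (6.75%), and the interferon-stimulated response element (2.98%). Ly6a, Ly6d and Ly6e had no window in the set used, so they were searched neither for the interferon-stimulated response element nor for the other motifs. Of the 9 genes 6 had a window, and 1 of these held a motif, the TGANTCA in the window of Plaur. These are matches of letters only.

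BC049730 was lower in CSD pups than in VD pups. In the litter of mother 3 the normalised log2 intensity was 6.91 in pup 3, 6.32 in pup 5, 7.73 in pup 8 and 6.91 in pup 9. In the litter of mother 4 it was 6.61 in pup 1, 5.95 in pup 2, 6.47 in pup 6 and 6.41 in pup 7. Of the CSD pups, pup 8 was the brightest, and pups 2, 5 and 7 were not well above background.
In the VD litter of mother 5 the values were 8.08 in pup 4, 7.29 in pup 5, 9.46 in pup 9, 7.35 in pup 10 and 10.01 in pup 11. In the litter of mother 6 they were 9.95 in pup 6, 10.19 in pup 7 and 10.52 in pup 8. On this scale, where an offset of 50 compresses dim values, the VD pups spread more widely than the CSD pups. In the gene matrix deposited by the authors the SD was 1.05 in CSD and 1.52 in VD pups. The groups overlapped, since CSD pup 8 lay above VD pups 5 and 10. Entire separation of the 8 CSD from the 8 VD pups was seen for 0.493% of 36493 genes with a value on every array, and for 0 of the 9 genes described here.
The group means were 6.66 ± 0.53 in CSD and 9.11 ± 1.32 in VD pups (SD, n = 8), and the fitted difference, with sex and mother in the model, was -2.19 with a standard error of 0.43, or 4.56-fold. This fold is not exact, since the offset compressed the dim CSD values and some CSD spots were not well above background. The difference was the largest decrease among the 201 genes called lower in CSD pups, 0.548% of the genes tested. That of B4galnt2, at -2.10, was within its standard error. Within slide 1 the difference was -1.49 (SE 0.70) and within slide 2 it was -2.92 (SE 0.31), and without the litters of mothers 3, 4, 5 and 6 it was -2.42, -1.78, -3.34 and -1.70. The mother term changed the standard error little, the difference being -2.18 (SE 0.42) with no mother in the model. With litter means as samples the difference was -2.66 (SE 0.65). Since BC049730 was selected on this contrast, the size of its difference is a description. Its place among the called genes, which were 1.25% of all (460 of 36711), was fixed by that choice, and nothing is read from it. The differences of the other 8 genes lay between -0.34 and 0.31.

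**Figure D1:**
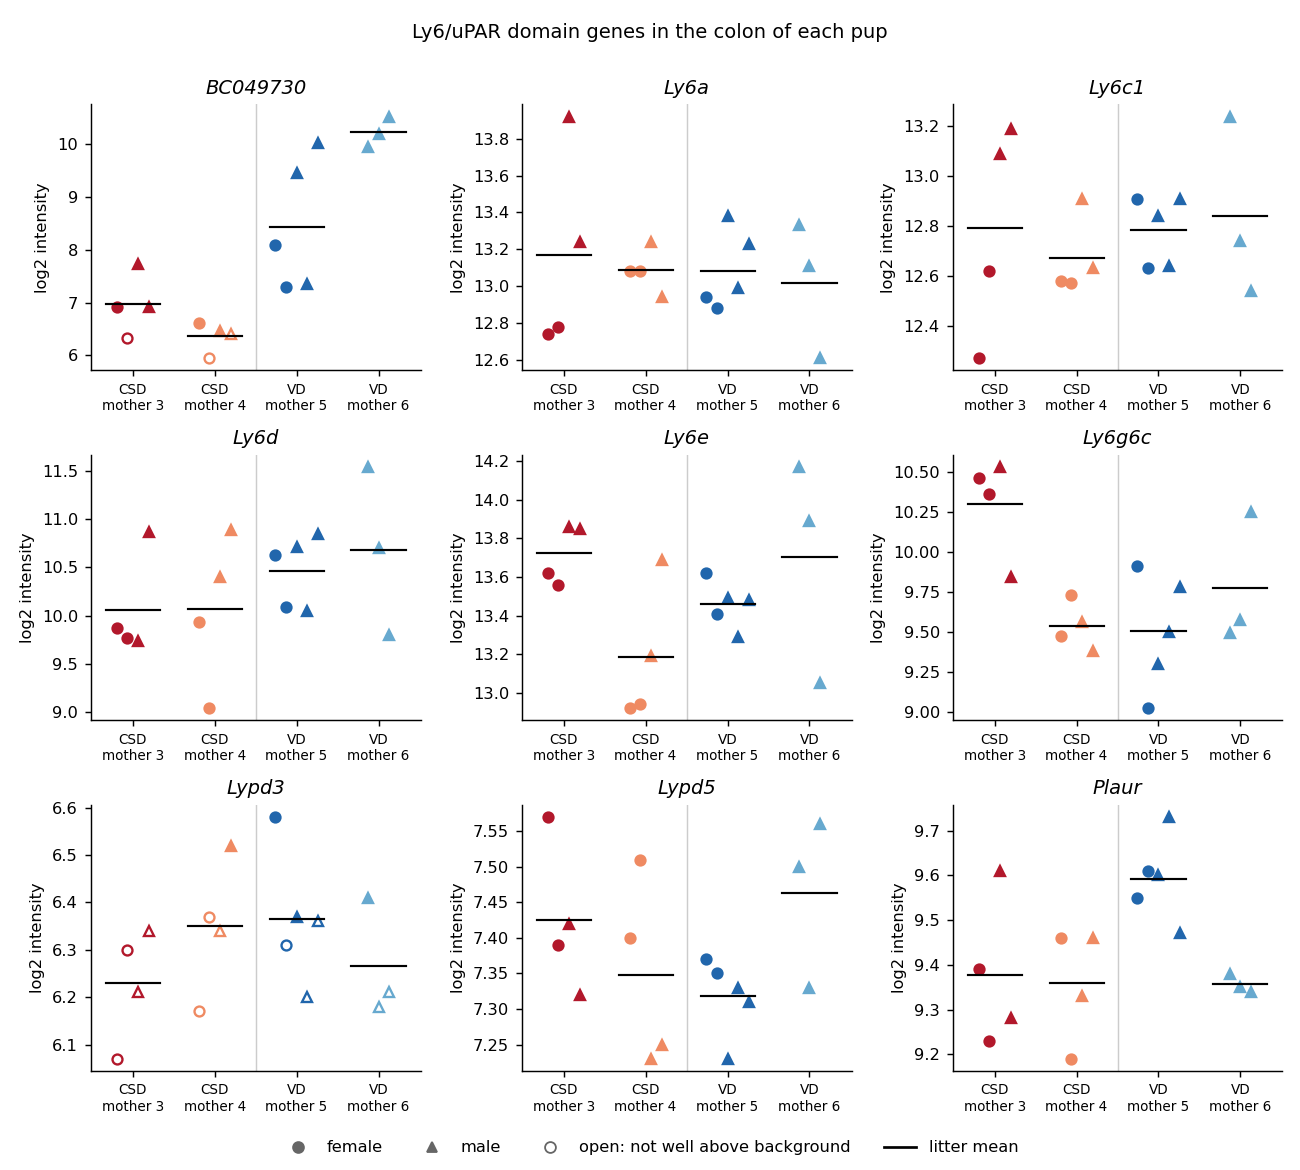
Normalised log2 intensity (y axis, a separate scale for each gene) of the 9 genes in each pup, by litter (x axis). Circles are females, triangles males, open symbols spots not well above background, and bars litter means. BC049730 lies between 5.95 and 7.73 in the 8 CSD pups and between 7.29 and 10.52 in the 8 VD pups, with CSD pup 8 above VD pups 5 and 10. Of the other genes, Plaur has 1 CSD litter (mother 4, up to 9.46) entirely below 1 VD litter (mother 5, from 9.47).

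The scanner values behind these numbers were examined, because normalised values of dim spots depend on the background correction. The mean pixel intensity of the BC049730 spot ranged from 29.1 to 192 in CSD pups and from 127 to 1470 in VD pups, over a local background of 21.5 to 26. The spot was well above background on 5 of 8 CSD and 8 of 8 VD arrays, and the spots of CSD pups 2, 5 and 7 were not. The scanner's background-subtracted signal ran from 4.29 to 169 in CSD and from 101 to 1590 in VD pups, the lowest CSD value being that of pup 2, whose spot was not well above background, so that no spread is read from it. With the scanner's own background-subtracted signal the difference was -3.63 after quantile normalisation, and in the gene matrix deposited by the authors it was -3.04, against -2.19 here, where an offset of 50 compressed low values.

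**Figure D2:**
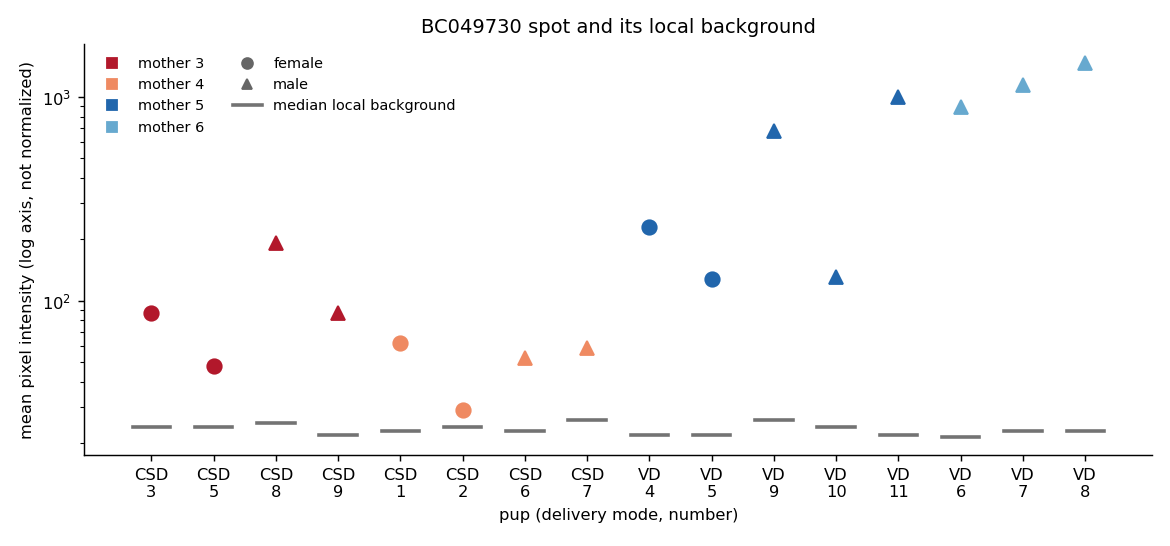
Mean pixel intensity of the BC049730 spot (y axis, log scale, not normalised) in each of the 16 pups (x axis), with the median local background of the spot as a grey bar. Colours are litters, circles females and triangles males. All backgrounds lie between 21.5 and 26, and the spot of CSD pup 2, at 29.1, is nearest to its background.

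BC049730 was compared between litters of the same delivery mode, a contrast that did not enter its selection. The mean of the litter of mother 5 was 8.44 and that of mother 6 was 10.22, and the fitted difference with sex in the model was -1.49 (SE 0.50). It did not pass the test across all genes (limma, adjusted p = 0.216, unadjusted p = 0.0099), and permuting the pups between these litters (exact, two-sided, 56 assignments) gave p = 0.0536, or 0.241 adjusted over the 18 litter tests of the 9 genes. All 3 pups of mother 6 were males, so that the sex term of the fit came from the litters of mothers 3, 4 and 5. The permutation held no sex term. Among males alone the mean was 8.94 for mother 5 and 10.22 for mother 6.
The CSD litters had means of 6.97 (mother 3) and 6.36 (mother 4), a difference of 0.61 (SE 0.46, limma adjusted p = 0.804, exact permutation p = 0.114 over 70 assignments). This difference was larger on other scales. It was 1.18 in the deposited gene matrix and 1.72 with the scanner's background-subtracted signal after quantile normalisation (limma adjusted p = 0.657 and 0.653). The difference between the VD litters was -1.58 and -1.65 on those scales. At the gene level 0.874% of 36711 genes were called between the VD litters and 0.0872% between the CSD litters. Of the 9 genes 0 were called in either comparison. At an unadjusted p under 0.05 there were 3 of 9 between the VD litters, where 11.5% of all genes were below that limit, and 2 of 9 between the CSD litters, where 7.68% were.

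Females had lower BC049730 values than males, 6.86 against 8.50 on average. The difference within delivery modes was -1.04 (SE 0.43), with an unadjusted p of 0.0279 and an adjusted p of 0.744 in limma. Over 27 alternatives it ran from -1.69 to -0.75, with an adjusted p from 0.5 to 0.933 in limma. The only VD females, pups 4 and 5 of mother 5, had 8.08 and 7.29, and the 5 brightest VD pups were all males, whereas the remaining VD male, pup 10, had 7.35. Litter is mixed into the difference between the sexes, since the pups of mother 6, the brighter VD litter, were all males. Between the sexes 0.0599% of genes were called and 0 of the 9 genes. At an unadjusted p under 0.05 there were 4 of 9, beside 6.45% of all genes, and all 4 were lower in females: Ly6d by 0.58 (SE 0.26), Ly6a by 0.32 (SE 0.14), Ly6c1 by 0.28 (SE 0.12) and BC049730. Their adjusted p lay between 0.744 and 0.767 in limma. Ly6a and Ly6e belong to the genes that interferon induces, and of 26 other such genes 24 had a negative difference between females and males, with a median of -0.20 against 0.00 for all genes, 10 at an unadjusted p under 0.05 and 0 called. Of the cell type lists, all 11 T cell markers were negative (median -0.26, 0 at an unadjusted p under 0.05) and so were 16 of 18 endothelial markers (median -0.06, 1 at an unadjusted p under 0.05), with 0 called in either. Negative differences were also seen for 9 of 13 neutrophil and monocyte markers (median -0.06), 7 of 8 small intestine markers (median -0.03), 14 of 23 squamous markers (median -0.01) and 2 of 4 distal hindgut markers (median -0.08), whereas 12 of 17 surface colonocyte markers were positive (median 0.04). The part of these cells in the differences between the sexes was not tested.
The difference between delivery modes was not shown to depend on sex for any of the 9 genes (limma interaction, adjusted p = 0.981 for each). For BC049730 the interaction was 1.44 (SE 0.82), meaning a smaller decrease in females. Litter and sex are mixed in this value, since the VD females all came from mother 5 and the pups of mother 6 were males. The VD males averaged 9.58, those of mother 5 alone 8.94, and the VD females 7.69. At an unadjusted p under 0.05 there was 1 of 9, Lypd3 with -0.28 (SE 0.13), beside 4.72% of all genes. Lypd3 lay near background, being well above it on 1 CSD and 3 VD arrays only. Across all genes 0.00272% were called, which is the single gene Abhd1, named here after its value was seen.

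Ly6a, Ly6c1, Ly6d and Ly6e lie in the Ly6 cluster on chromosome 15 and are best known as surface antigens of blood cells, endothelium and epithelium. Ly6a, a stem cell antigen that is induced by interferon and marks the repairing colon epithelium, had log2 intensities from 12.74 to 13.92 in CSD pups (median 13.08) and from 12.61 to 13.38 in VD pups (median 13.05). CSD pup 8 stood apart at 13.92. The other 7 CSD pups lay between 12.74 and 13.24, within the VD range. The fitted difference was 0.15 (SE 0.14), and without pup 8 it was 0.02 (SE 0.11).
Ly6c1, an antigen of endothelium and of some leukocytes, ranged from 12.27 to 13.19 in CSD (median 12.63) and from 12.54 to 13.24 in VD pups (median 12.79), with a difference of 0.00 (SE 0.12). Its 2 probes followed each other over the 16 arrays (r = 0.71). Ly6d, found on keratinocytes and lymphoid progenitors, ranged from 9.04 to 10.89 in CSD (median 9.90) and from 9.80 to 11.54 in VD pups (median 10.67).
The Ly6d difference, -0.34 (SE 0.26), was the most negative after BC049730. In the CSD group 3 pups lay at or above 10.40 and 5 at or below 9.93. Of the VD pups, pup 6 lay above every CSD pup, and 3 CSD pups lay below every VD pup. Ly6e, a broadly expressed interferon-induced member, ranged from 12.92 to 13.86 in CSD (median 13.59) and from 13.05 to 14.17 in VD pups (median 13.48), a difference of -0.04 (SE 0.17).
Within the CSD group Ly6e separated by litter in part. It was 13.62, 13.56, 13.86 and 13.85 in pups 3, 5, 8 and 9 of mother 3, and 12.92, 12.94, 13.19 and 13.69 in pups 1, 2, 6 and 7 of mother 4. The difference between these litters was 0.54 (SE 0.20, unadjusted p = 0.0163, adjusted p = 0.487 in limma, exact permutation p = 0.0857), and pup 7 lay within the range of the other litter.

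Ly6g6c, which lies in the class III region of the major histocompatibility complex on chromosome 17, showed the clearest litter pattern of the 9 genes in CSD pups. Its values were 10.46, 10.36, 10.53 and 9.84 in pups 3, 5, 8 and 9 of mother 3. They were 9.47, 9.73, 9.56 and 9.38 in pups 1, 2, 6 and 7 of mother 4, so that all 4 pups of mother 3 lay above all 4 of mother 4.
The litter difference was 0.77 (SE 0.21, unadjusted p = 0.00284, adjusted p = 0.285 in limma), and the exact permutation p was 0.0286, the smallest that 70 assignments can give (0.241 adjusted over the 18 litter tests of the 9 genes). VD pups ranged from 9.02 to 10.25 (median 9.53) and overlapped both CSD litters, with a difference between delivery modes of 0.31 (SE 0.21). That value rested on litters and single pups: it was -0.05 without the litter of mother 3, 0.70 without that of mother 4, 0.06 without that of mother 5, 0.16 without VD pup 5 and 0.19 without CSD pup 8, and 0.65 within slide 1 but -0.04 within slide 2. The 2 probes of Ly6g6c did not share the litter pattern in size. One, at chr17:35206934-35206993 (mm9), differed by 1.39 between the CSD litters, and the other, at chr17:35206328-35206387, by 0.15, while their correlation over the 16 arrays was 0.66.

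Plaur, Lypd3 and Lypd5 lie on chromosome 7, in the same region as BC049730. Plaur, the urokinase receptor, which focuses plasminogen activation at the cell surface, ranged from 9.19 to 9.61 in CSD (median 9.36) and from 9.34 to 9.73 in VD pups (median 9.51). The fitted difference was -0.13 (SE 0.07). In the VD group it divided by litter: the pups of mother 5 had 9.55, 9.61, 9.60, 9.73 and 9.47 (pups 4, 5, 9, 10 and 11) and those of mother 6 had 9.38, 9.35 and 9.34 (pups 6, 7 and 8).
All 5 pups of mother 5 lay above all 3 of mother 6, a difference of 0.26 (SE 0.09, unadjusted p = 0.00883, adjusted p = 0.204 in limma) with an exact permutation p of 0.0179, the smallest that 56 assignments can give, and of 0.241 after Benjamini-Hochberg adjustment over the 18 litter tests of the 9 genes. BC049730 ran the other way between these litters. When the litter of mother 5 was left out, the difference of Plaur between delivery modes was 0.06 in place of -0.13.
Lypd3, an adhesion-related antigen of stratified squamous epithelium, was well above background on 1 CSD and 3 VD arrays only, and its values of 6.07 to 6.58 give little more than a bound. Lypd5 ranged from 7.23 to 7.57 in CSD and from 7.23 to 7.56 in VD pups, with a difference of -0.01 (SE 0.05). Without the litter of mother 5 that difference was -0.16. Between the VD litters (mother 5 minus mother 6) Lypd5 differed by -0.19 (SE 0.06, unadjusted p = 0.00801, adjusted p = 0.195 in limma, exact permutation p = 0.0536). One of its 2 probes was well above background on 0 arrays and did not follow the other (r = -0.20), so that averaging the probes reduces any difference in Lypd5.

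The genes around BC049730 were examined, since single-probe differences gain from measurements of neighbouring genes. Of 48 other genes with a probe within 500 kb of the BC049730 probe, 1 was called between delivery modes, Ceacam10 at 67 kb, beside 1.25% of all genes. Ceacam10, a secreted member of the carcinoembryonic antigen family, was 8.99 ± 0.22 in CSD and 10.61 ± 0.85 in VD pups (SD, n = 8), a difference of -1.50 (SE 0.29, 2.84-fold, adjusted p = 0.0242 in limma). Cd177, at 32 kb, itself a Ly6/uPAR protein known from the neutrophil surface, was 8.43 ± 0.28 in CSD and 9.91 ± 1.03 in VD pups.
Its difference of -1.31 (SE 0.34, 2.48-fold) did not pass (adjusted p = 0.0703 in limma). At an unadjusted p under 0.05 there were 9 of the 48 neighbours, beside 14.5% of all genes. The differences of all 48 ran from -1.50 to 0.27 with a median of -0.01. After Ceacam10 and Cd177 the most negative was that of Cd79a, the B cell receptor subunit, at -0.48 (SE 0.14, adjusted p = 0.0993). The Ceacam10 call was lost in limma when CSD pup 6 (adjusted p = 0.0521), CSD pup 7 (0.0608), VD pup 4 (0.0748) or the litter of mother 3 (0.0932) or of mother 4 (0.135) was left out, with differences of -1.50 to -1.40. It was also lost with litter means as samples (0.183), in males only (0.114), within slide 1 (0.605) and slide 2 (0.118) and with the replicate block (0.137), with differences of -1.85 to -1.20. Cd177 passed without VD pup 5 (0.0169), VD pup 10 (0.0337) or the litter of mother 5 (0.00104), and with no sex in the model (0.0326), alternatives chosen after seeing the data. Over 37 such alternatives the adjusted p in limma ran from 0.000696 to 0.605 for Ceacam10, called in 27, and from 0.00104 to 0.736 for Cd177, called in 4. The neighbours were measured in the same pups on which BC049730 was chosen, so they are no independent replicate of its difference.

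**Figure D3:**
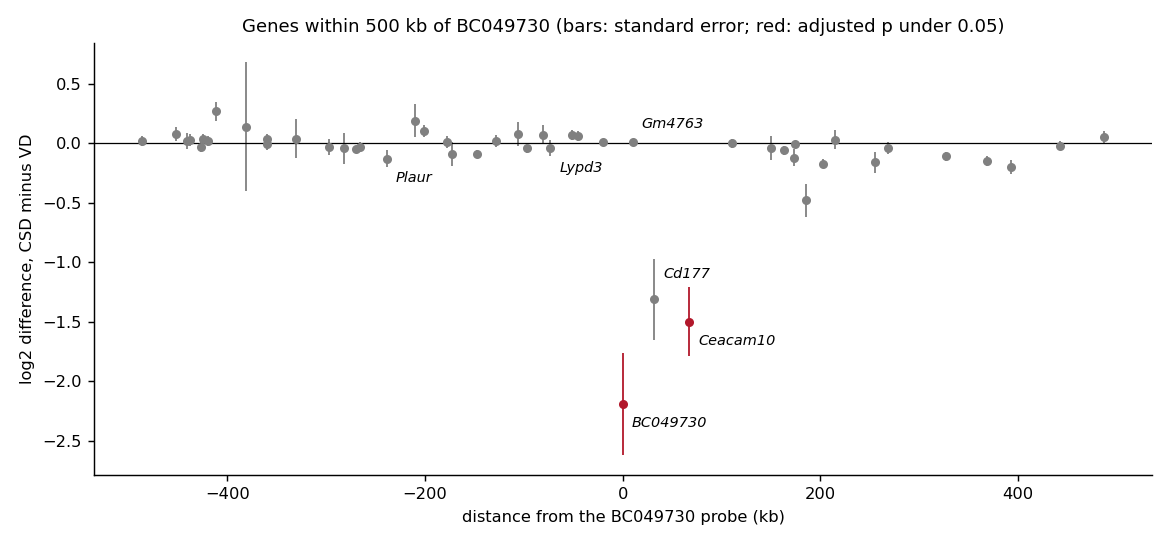
Fitted log2 difference, CSD minus VD (y axis, bars standard error), of BC049730 and of the 48 other genes with a probe within 500 kb, against the distance of their probe from the BC049730 probe (x axis, kb). Red points had an adjusted p under 0.05. BC049730, Cd177 and Ceacam10 lie between -2.19 and -1.31, and the next lowest is Cd79a at -0.48.

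The values of Cd177 and Ceacam10 by pup resembled those of BC049730 in the VD litters. Cd177 was 9.71 in pup 4, 7.94 in pup 5, 10.83 in pup 9, 8.84 in pup 10 and 10.83 in pup 11 of mother 5, and 10.19, 10.50 and 10.45 in pups 6, 7 and 8 of mother 6. VD pups 5 and 10, which had the lowest BC049730 values of their group, also had the lowest Cd177 values, 2 of 8 pups that lay within or below the CSD range of 8.03 to 8.97.
Ceacam10 was 10.69, 9.02, 11.26, 9.75 and 11.66 in pups 4, 5, 9, 10 and 11 of mother 5, and 10.75, 11.05 and 10.70 in pups 6, 7 and 8 of mother 6. The CSD pups had 8.77 to 9.43, and VD pup 5 was again within their range, whereas the other 7 VD pups lay above it. Unlike BC049730, these neighbours exceeded the background clearly on each of the 16 arrays.
Relations of BC049730 with these genes were computed within each delivery mode, 4 in all, and were chosen after the values were seen. An adjustment over 4 does not cover that choice, so the p-values are given as a description. Over the 8 VD pups the correlation with Cd177 was r = 0.88 (exact permutation p = 0.00451, 0.0181 after Benjamini-Hochberg adjustment over 4) and Spearman's rho was 0.67 (exact p = 0.0831, adjusted 0.192), and without the 2 pups farthest from the median of BC049730 r was 0.64. With Ceacam10 r was 0.79 (exact p = 0.0155, adjusted 0.031) and rho 0.64 (exact p = 0.0962, adjusted 0.192). It dropped to 0.21 without the 2 farthest pups and so rested on those.
Over the 8 CSD pups r was 0.12 with Cd177 (exact p = 0.76, rho 0.31, exact p = 0.462) and -0.10 with Ceacam10 (exact p = 0.795, rho 0.05, exact p = 0.935). Without the 2 farthest CSD pups both were 0.80. Pups of 1 litter are not fully independent, so that these p-values may be too small.

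**Figure D4:**
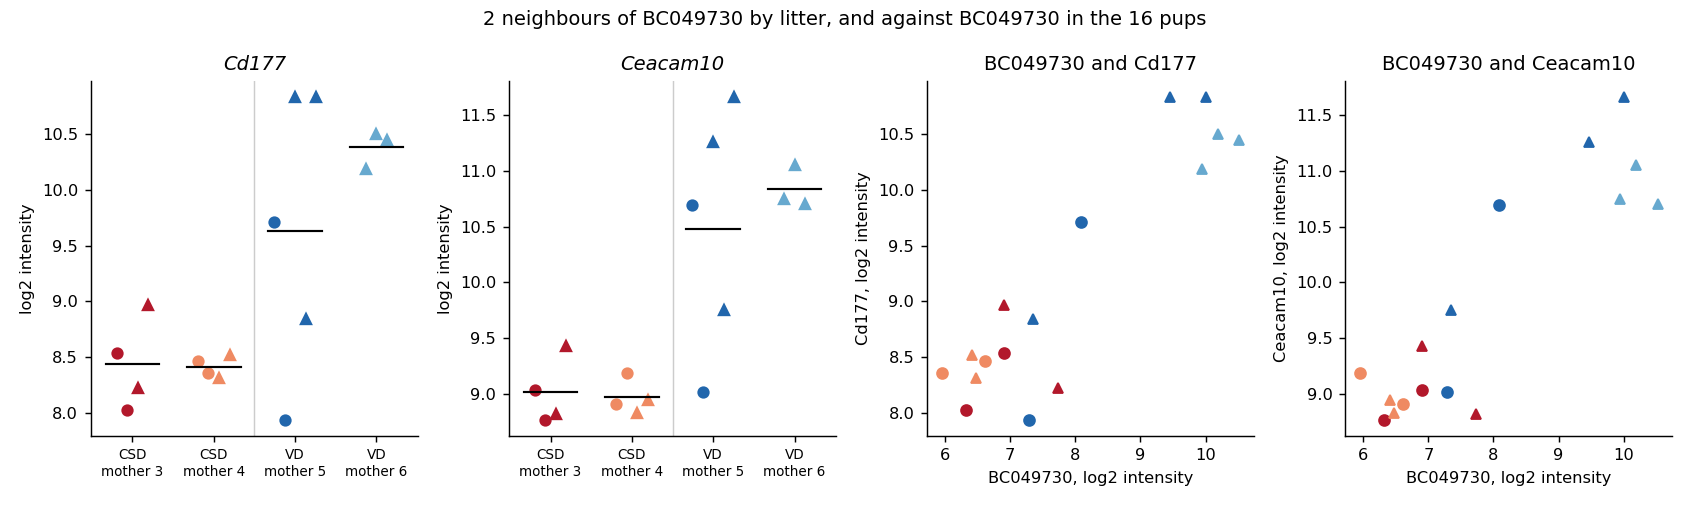
Normalised log2 intensity of Cd177 and Ceacam10 by litter (the 2 panels on the left; bars are litter means) and against BC049730 in the 16 pups (the 2 panels on the right). Circles are females and triangles males, coloured by litter. VD pups 5 and 10 lie with or close to the CSD pups on all 3 genes, and the CSD pups reach at most 8.97 for Cd177 and 9.43 for Ceacam10.

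Other cell types were followed with marker lists, because Ly6/uPAR proteins and Cd177 are expressed by leukocytes and vessels. Of 13 neutrophil and monocyte markers 0 were called, 3 had a positive and 10 a negative difference, with a median of -0.05 against 0.00 for all genes, and the mean over the list was 8.88 ± 0.17 in CSD and 8.97 ± 0.24 in VD pups. The neutrophil granule genes S100a8 (-0.02, SE 0.30) and S100a9 (-0.17, SE 0.45) did not differ beyond their error, Ngp was well above background on 0 arrays, and the highest probe signal of the list was that of Csf3r (15.56 ± 0.11 and 15.49 ± 0.15). Signals of different probes do not rank transcripts by abundance. Ccr2, with -0.32 (adjusted p = 0.09), and Lyz2, with -0.37 (adjusted p = 0.22), had the smallest p.
All 11 T cell markers had a negative difference, with a median of -0.39, and 0 were called. Their mean was 8.46 ± 0.33 in CSD and 8.95 ± 0.44 in VD pups, the highest probe signal being that of Thy1 (-0.39, SE 0.10, adjusted p = 0.062), followed in order of p by Cd2 (-0.77, SE 0.26, adjusted p = 0.162). All 18 endothelial markers likewise had a negative difference, with a median of -0.14, and 1 was called beside 1.25% of all genes, Egfl7, which fell by 0.41 (SE 0.07, adjusted p = 0.0123) and had the highest probe signal of the list. At an unadjusted p under 0.05 there were 8 of 18 endothelial and 6 of 11 T cell markers, beside 14.5% of all genes.
Of 23 squamous epithelium markers 8 were positive, 15 negative and 0 called (median -0.03), with Krtdap (-0.21, adjusted p = 0.171) and Krt13 (-0.24, adjusted p = 0.256) at the smallest p. Of 17 surface colonocyte markers 14 were positive and 0 called (median 0.17), with Slc26a3 (0.45, adjusted p = 0.113) and Slc9a3 (0.88, adjusted p = 0.126) at the smallest p. Of the 4 distal hindgut markers 0 were called; Hoxa13 (0.39, adjusted p = 0.0902) and Hoxb13 (-0.15, adjusted p = 0.348) had the smallest p. Of 8 small intestine markers 0 were called, Apoa1 (0.05, adjusted p = 0.457) and Apoa4 (-0.05, adjusted p = 0.605) having the smallest p. The T cell and endothelial markers differed in the direction of BC049730, Cd177 and Ceacam10 and most colonocyte markers in the opposite one, and their part in those differences was not tested. All adjusted p are from limma.

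The wider family was read from a list of 37 further Ly6/uPAR genes, of which 33 were on the array and 25 were well above background on at least 8 arrays. Between delivery modes 0 of the 33 were called in limma, and 13 differences were positive and 20 negative, and the median was -0.02 against 0.00 for all genes. At an unadjusted p under 0.05 there were 6 of 33, beside 14.5% of all genes, the smallest p being those of Cd177, given above, and Lypd6b. Lypd6b, a GPI-anchored modulator of acetylcholine receptors, was 9.41 ± 0.18 in CSD and 9.10 ± 0.15 in VD pups, a difference of 0.26 (SE 0.07, adjusted p = 0.0919).
Lypd8, the secreted mucus protein of the colon that binds flagellated bacteria, was 18.12 ± 0.12 in CSD and 18.26 ± 0.13 in VD pups, with a difference of -0.11 (SE 0.06, adjusted p = 0.432). Single calls in the list appeared when a library was left out, that of Lypd6b without VD pup 7, those of Lypd8 (lower) and Lypd6b without the litter of mother 6, and that of Ly6l without the litter of mother 4. With every array kept, Lypd6b was also called higher with the brightest probe and with no sex in the model. Ly6l had a difference of 0.37 (SE 0.11, adjusted p = 0.131) and was well above background on 7 CSD and 3 VD arrays. Slurp1, a secreted family member, had a difference of -0.31 (SE 0.12, adjusted p = 0.233). Apart from BC049730 and Cd177, the measured family members lay between -0.34 and 0.76, and the upper end of this range, Pate4 (0.76, SE 0.47), was well above background on 3 CSD and 2 VD arrays only.

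**Figure D5:**
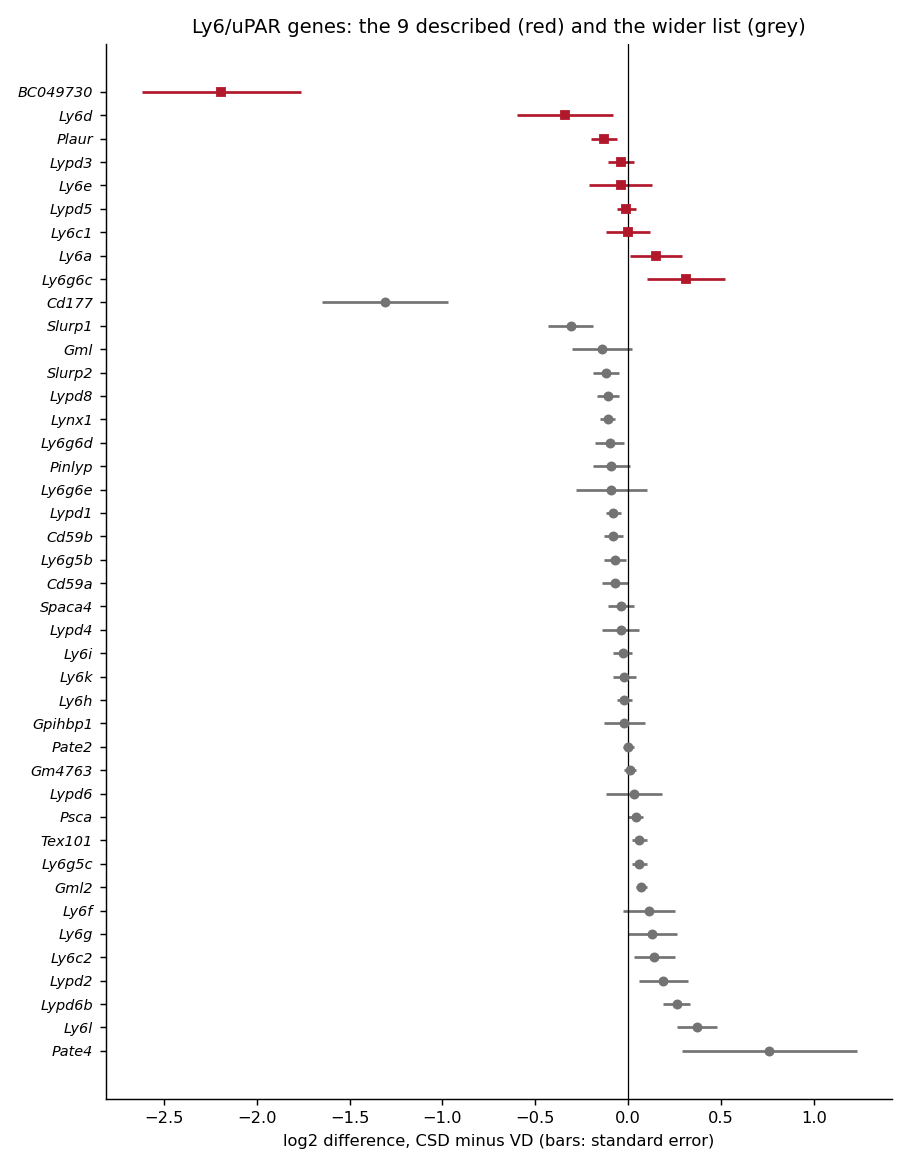
Fitted log2 difference, CSD minus VD (x axis, bars standard error), of the 9 genes described (red squares) and of the 33 measured genes of the wider Ly6/uPAR list (grey circles). BC049730 at -2.19 and Cd177 at -1.31 lie apart on the left, and Pate4 at 0.76 on the right has the widest error.

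The partners of these proteins were read in the same way. Of 16 genes of the urokinase system, to which Plaur belongs, 0 were called, 5 were positive and 11 negative (median -0.05). The smallest p were those of Lrp1, the endocytic receptor that clears urokinase complexes (-0.16, SE 0.04, adjusted p = 0.0877), and of Plau, the urokinase itself (-0.18, SE 0.07, adjusted p = 0.229). Of 26 interferon-stimulated genes, read because Ly6a and Ly6e are among interferon's targets, 20 were positive and 0 called (median 0.08). Oas1a had 0.25 (SE 0.08, adjusted p = 0.145) and Isg15 had 0.60 (SE 0.20, adjusted p = 0.153). Of 24 genes that make and attach the GPI anchor 14 were positive and 0 called (median 0.02), led by Piga (0.29, SE 0.08, adjusted p = 0.0921) and Pigh (0.20, SE 0.06, adjusted p = 0.122). All adjusted p are from limma.

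All 6 pairs of the chromosome 15 genes Ly6a, Ly6c1, Ly6d and Ly6e had a positive correlation over the 16 pups, from 0.22 (Ly6a with Ly6d) to 0.72. Among all 36 pairs of the 9 genes 23 were positive. Ly6a with Ly6d had r = -0.03 within CSD pups and 0.83 within VD pups. Of the 36 pairs 1 had a correlation over the 16 pups that passed adjustment over the 36, that of Ly6a with Ly6c1 (r = 0.72, permutation p = 0.00126, adjusted p = 0.0454; rho = 0.78, permutation p = 0.00075, adjusted p = 0.027). It was 0.75 without the 2 pups farthest in Ly6a, 0.76 within CSD pups and 0.74 within VD pups. Sex was not taken out of these values, and both genes had a negative difference, females minus males (Ly6a -0.32, Ly6c1 -0.28). Ly6d and Ly6c1 were correlated within VD pups (r = 0.96, exact permutation p = 0.000546, adjusted p = 0.0196 over the 36 pairs) and had a lower value within CSD pups (r = 0.41, exact permutation p = 0.325); the difference between these was not tested. Ly6d and Ly6e had r = 0.66 over the 16 pups (permutation p = 0.00504, adjusted p = 0.0907) and 0.89 within VD pups (exact permutation p = 0.00278, adjusted p = 0.05). Their r was 0.49 within CSD pups (exact permutation p = 0.221) and 0.38 without the 2 pups farthest in Ly6d. The rho of this pair over the 16 pups was 0.48 (permutation p = 0.0618, adjusted p = 0.278). BC049730 and Plaur had r = -0.86 within VD pups (exact permutation p = 0.00873, adjusted p = 0.0951) and 0.76 within CSD pups (exact permutation p = 0.0266, adjusted p = 0.319), and neither passed the adjustment.

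Likeness was also searched across the array, by the correlation of values from which the means of the delivery-by-sex groups had been taken, over 16 pups and 22832 genes that were well above background on at least 8 arrays. These correlations are the highest of many and are given as a description. The genes most like BC049730 were 9230113P08Rik (r = 0.89), an unannotated transcript of chromosome 8 (0.85), Vps41 (0.83), Stard5 (0.83) and Phactr2 (0.82). None of these was called between delivery modes, and their differences lay between -0.09 and -0.01. For Cd177 and Ceacam10 the same measure was 0.68 and 0.57.
Ly6a was most like a further transcript of chromosome 15 (0.96), Arpc4 (0.94) and Nedd8 (0.91), and Ly6c1 was most like Trabd (0.94), Slc16a6 (0.86) and A530032D15Rik (0.85). The genes most like Ly6d were an expressed sequence of chromosome 17 (0.90), Rassf5 (0.90) and Il2rb (0.89), which encodes a lymphocyte cytokine receptor. Ly6e was followed most closely by Gm15624 (0.91), H2-M11 (0.90) and Plcd1 (0.85).
Ly6g6c had Gsdmc (0.91), a gasdermin, Tprkb (0.89) and Ly6g6e (0.89), its neighbour in the same cluster. Those of Plaur were Cacul1 (0.89), Klk10 (0.89) and an unannotated transcript of chromosome 12 (0.87). Lypd5 had C2cd4d (0.91), an unannotated transcript of chromosome 9 (0.91) and Tmem45b (0.90), and Lypd3, whose signal was near background, had Ctsd (0.91), Adra2a (0.90) and Gm13304 (0.87).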

How the data were processed

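Colon RNA of 16 pups was labelled with Cy3 and measured on 1-colour Agilent arrays of 62976 spots. The authors deposited scanner output of Feature Extraction 12.0.3.2 as linear intensity per spot, with other columns of 0 or 1 marks for spots well above background, saturated or outlying, and a log2 gene matrix that, per their methods, was quantile normalised and averaged per gene with limma 3.38. The scanner intensities were the starting point here. They were background corrected (normexp, offset 50, on mean and local background signals), control spots and outlying spots were dropped, log2 values were quantile normalised, and repeated spots were averaged per probe. A probe was retained when it exceeded the lowest 5% of signals in 4 or more arrays (56366 of 56605), and gene values are means over the retained probes. There were 36711 genes, of which 218 had missing values and were fitted on their remaining arrays.

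Differences were fitted in limma 3.58.1 (R 4.3.3) with fixed terms for delivery mode and for sex, and mother as a random block (consensus correlation 0.02), or with litter and sex for comparisons of litters, and p-values were adjusted by Benjamini-Hochberg over all genes at 0.05. Single values were also compared by exact permutation, and the fit was tested on simulated data. The number of arrays limits the precision. Samples were grouped by their labels, and pups of a litter share a dam, so that p-values measure the spread between pups of few litters.

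The 9 genes and the gene lists were chosen with earlier results of these data known. Named genes were the 9 genes, from each list those called between delivery modes or else the 2 with the smallest p, genes within 500 kb of the BC049730 probe, and the genes with the most similar residual profile (5 for BC049730, 3 for each other gene). Others were named after their values were seen. Alternatives covered background correction, scale, filter, probe choice, the deposited matrix, model terms, slides, and leaving out pups and litters. Probe positions are those of the files (mm9), and promoter windows are from RefSeq (GRCm38.p6). Versions used were Python 3.11.15, numpy 2.4.6, pandas 2.3.3 and matplotlib 3.10.9.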

Additional observations from a re-analysis of the deposited data

Results flagged for a closer look

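Each group of 8 pups was searched for a pup far from the others, in 22 groups of values. In 1 of them the highest pup stood apart: Ly6a in CSD pup 8, at a log2 intensity of 13.92, where the gap to the next pup was 0.575 of the range of the group (critical value 0.526). Chance gives about 1 such group in 20. The same pup had the highest BC049730 value of the CSD group, 7.73.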

How the results depend on the processing

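The BC049730 difference between delivery modes was negative in all 37 alternatives, from -3.63 to -1.49. It was -3.63 with scanner-corrected signals and quantile normalisation, -3.62 with those signals scaled to the 75th percentile, and -2.42, -1.78, -3.34 and -1.70 without the litters of mothers 3, 4, 5 and 6. Leaving out 1 pup gave -2.44 to -2.03. Over the same 37 alternatives Ly6d ran from -0.51 to -0.13 and Ly6a from 0.02 to 0.32, whereas the direction turned for Ly6g6c (-0.05 to 0.70), Ly6e (-0.31 to 0.21), Ly6c1 (-0.11 to 0.14), Lypd3 (-0.12 to 0.08), Lypd5 (-0.16 to 0.07) and Plaur (-0.22 to 0.06).

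The number of genes called between delivery modes, 460, was far less stable. It was 243 and 102 with offsets of 16 and 0, 177 and 164 with scanner-corrected signals (quantile, 75th percentile), 170 in the deposited matrix, 992 without sex, 0 with litter means, 0 in males only, and 11 and 0 within slides 1 and 2. Leaving out 1 pup gave 145 (VD pup 4) to 617, and leaving out the litters of mothers 3, 4, 5 and 6 gave 212, 138, 189 and 2265. Fewer samples were tested in the litter, male, slide and leave-out settings, yet the count also rose in some leave-out settings. The cause of the shifts was not tested. The wider Ly6/uPAR list, with 0 calls, had 1 with the brightest probe, 2 without sex, 0 to 1 without 1 pup, and 1, 1 and 2 without the litters of mothers 4, 5 and 6.

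The single interaction call became 5 with scanner-corrected signals (quantile) and 2 with slide in the model, and 1 to 127 without 1 pup, the highest being without VD pup 4, 1 of 2 VD females. The 32 calls between CSD litters were 21 with an offset of 0, 57 with probes well above background and 69 with the brightest probe, and 23 to 44 without 1 pup. The 321 calls between VD litters were 128 with an offset of 0, 150 and 109 with scanner-corrected signals, 482 with probes well above background, and 77 to 370 without 1 pup.

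Differences between the sexes that lay near 0 changed sign: without 1 pup Ly6g6c (0.03) ranged from -0.06 to 0.20, Lypd3 (0.00) from -0.08 to 0.04 and Plaur (-0.02) from -0.05 to 0.02, and Plaur had 0.00 in the deposited matrix. Replicate numbers were shared by 5 pairs of CSD and VD pups, and 2 of 5 correlations of their deviations were over 0.1 (-0.05 to 0.22). For 2 of the 5 numbers the best match was the pup of the same number. So few pairs cannot decide whether the numbers pair the pups. With the replicate block 0 genes were called and BC049730 had -2.71.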
